A study of Zea mays with 4 samples.

Results

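The 122 genes described here had a higher transcript level in maize endosperm at 7 days after pollination (DAP) than at 6 DAP. Endosperm is the nutritive tissue of the kernel, and it was digested to protoplasts (cells without walls) before droplet capture of single cells. For each library, the unique molecular identifiers (UMIs, one tag per captured transcript molecule) were summed over the kept cells and scaled to counts per 1000000 UMIs (CPM). Members were chosen by these values alone: a gene was taken if its mean over the 4 libraries was at least 10 CPM and its level at 6 DAP was at most 1/2 of its lowest level in any 7 DAP library. Of the 29279 genes with a UMI in a kept cell, 9772 reached 10 CPM, and 122 of these (1.25%) met the limit after leaving out 10 well-known AL and ESR genes, of which 9 would have met it. By the mirrored limit 82 genes (0.839%) fell. The split depended on scaling: with TMM, a scaling to the typical gene described below, 180 genes rose and 40 fell. The limit itself chose the members, so their rise is given as a description and carries no test.

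All kernels came from wild-type plants of the inbred line B73, and each preparation pooled many kernels. There was 1 library at 6 DAP and there were 3 replicate libraries at 7 DAP. No treatment or mutant was involved. The study calls the 3 libraries of 7 DAP biological replicates. The labels do not say what separated them. The p-values below set differences against the spread between these 3 libraries. In edgeR this spread is shared in part over all genes tested, so a p-value does not rest on 1 gene's own spread alone.

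At this age endosperm is dividing into cell types with separate tasks. The aleurone (AL) is the outer epidermal layer, which stores oil and protein and later secretes enzymes at germination. The basal endosperm transfer layer (BETL) takes up sugars and other nutrients from the mother plant, the starchy endosperm (SE) fills the interior with starch and storage protein, and the embryo-surrounding region (ESR) lines the cavity that holds the young embryo and is known for small secreted peptides.

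The 6 DAP library was smaller and shallower, with 3141 kept cells and a median of 1814 UMIs per cell. The 7 DAP libraries held 4385 to 4871 kept cells with medians of 3979 to 5659 UMIs, and their totals of 25574646 to 35365891 UMIs compare with 7117959 at 6 DAP. A level of 3 UMIs, taken as the smallest that a library could show, was 0.421 CPM at 6 DAP and 0.0848 to 0.117 CPM at 7 DAP. Summed markers of the 4 cell types differed between the ages. The AL markers were at 10849 CPM at 6 DAP against 44508 to 46677 at 7 DAP, the BETL markers at 17702 against 22687 to 25646, and the ESR markers at 189 against 1582 to 1963. The SE markers were lower at 7 DAP, at 542 to 684 CPM against 798 at 6 DAP. Nearly all of the AL sum came from AL9 (Zm00001d012572), at 10347 CPM at 6 DAP and 45760, 46020 and 43854 in 7 DAP replicates 1, 2 and 3. The other AL markers summed to 502 CPM and then 641, 656 and 655, so the choice of AL marker cells below rested largely on AL9. Among them, SBT1 (Zm00001d023684), also a gene that the rule left out, was at 227 CPM and then 373, 398 and 412. VPP7 (Zm00001d015569) was lower at 7 DAP, at 194 CPM and then 176, 156 and 152. DHN1 (Zm00001d037894) was at 80.2 CPM and then 91.6, 102 and 91.3. The labelled tissue therefore showed its defining markers at both ages, although 1 of the 5 AL markers, Zm00001d024210, had no UMI. In such sums a larger share of cells of one type and more transcript per cell cannot be told apart. Pairs of libraries shared only 3 to 7 cell barcodes.

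Together the 122 genes took 0.572% of the UMIs at 6 DAP and 1.91%, 2.08% and 2.01% in 7 DAP replicates 1, 2 and 3. Their median level was 11.4 CPM at 6 DAP and 31.9 CPM in the mean of 7 DAP. The log2 ratio of the mean 7 DAP level over the 6 DAP level had a median of 1.38, with quartiles of 1.19 and 1.79 and a range from 1.03 to 5.09. Most members moved little past the limit: 74 had a log2 ratio below 1.5, 21 lay between 1.5 and 2, 19 between 2 and 3, and 8 above 3. The median over all 9772 genes was -0.15.

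The 7 DAP libraries resembled each other closely for these genes. The coefficient of variation (SD over mean) across the 3 libraries had a median of 5.68% and was under 10% in 91 members. Replicate 1 was the lowest 7 DAP library for 65 members, replicate 2 for 23 and replicate 3 for 34, whereas replicate 3 was the lowest for 54.1% of the other tested genes and replicate 1 for 22.1%. Counting error at 6 DAP was larger. Members had a median of 81.5 UMIs there, and 30 had fewer than 50. For 61 members the upper end of the exact 95% Poisson interval at 6 DAP stayed below 1/2 of the lowest 7 DAP level, and for the other 61 it reached past the limit that chose them. Such intervals cover counting error and not the difference between separate preparations.

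**Figure D1:**
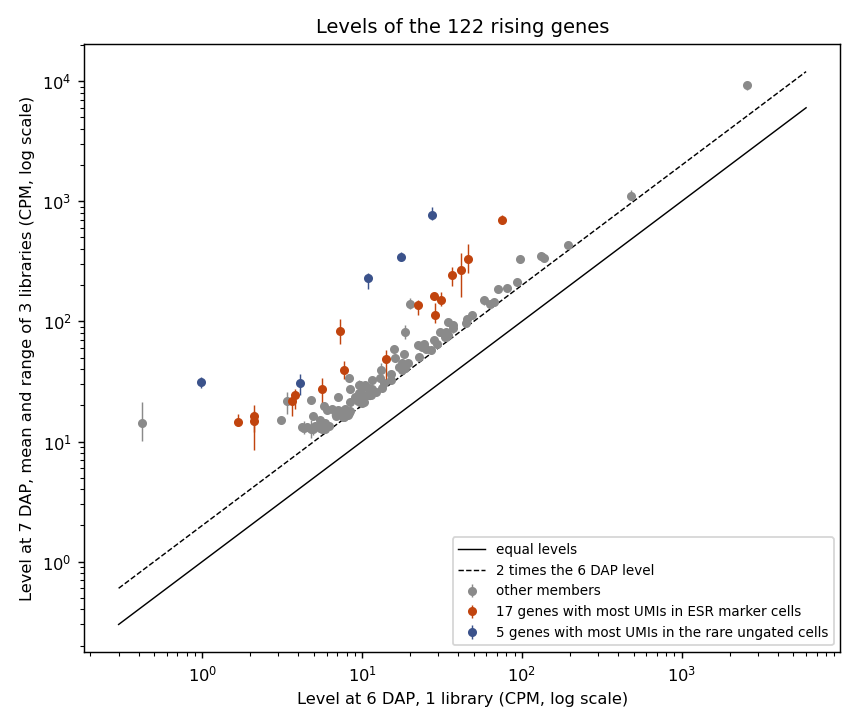
Level of each of the 122 members at 6 DAP (x axis, CPM, log scale, 1 library) and at 7 DAP (y axis, CPM, log scale, mean with the range of 3 libraries as bars). The solid line marks equal levels and the dashed line 2 times the 6 DAP level. Most grey points lie close to the dashed line, and the orange (17 genes) and blue (5 genes) points, whose UMIs sat mostly in small sets of cells, include most of those far above it, with the grey points of Zm00001d045861 and the oleosin gene Zm00001d045988 as exceptions. Zm00001d045861, with 0 UMIs at 6 DAP, is drawn at 0.421 CPM.

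At the limit itself, the nearest members inside were Zm00001d020438 (62.9 CPM at 6 DAP and 126, 144 and 145 in 7 DAP replicates 1 to 3), Zm00001d038446 (9.55 and then 32.3, 25.2 and 19.1) and Zm00001d014493 (44.7 and then 90.1, 96.4 and 105). The nearest genes outside were Zm00001d026296 (7.73 and then 17.4, 16.8 and 15.4), Zm00001d022891 (14.5 and then 28.8, 31.4 and 32.4) and Zm00001d039514 (7.16 and then 14.2, 14.8 and 15.4). The 3 members and the 3 excluded genes differed by little: their lowest 7 DAP levels were 2.00 to 2.02 and 1.99 times the 6 DAP level.

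The members with the largest ratios had their UMIs in few cells. Cells were assigned at each age by the share of their UMIs that came from marker genes, and ESR marker cells were those with at least 2% from 6 ESR markers. For 17 members, at least 50% of the UMIs in every 7 DAP library lay in ESR marker cells, with shares from 58.0% to 99.4%, and 12 of them had at least 90% there in each. These cells were rare. They numbered 4 of 3141 at 6 DAP (0.127%) and 51, 42 and 34 in 7 DAP replicates 1, 2 and 3 (1.06%, 0.862% and 0.775%). The 17 genes summed to 357 CPM at 6 DAP and to 2679, 2502 and 1994 CPM at 7 DAP, and their log2 ratios ran from 1.79 to 3.51 with a median of 2.68. Replicate 3, which had the fewest ESR marker cells of the 7 DAP libraries, was the lowest 7 DAP library for 15 of the 17.

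The most abundant of these was Zm00001d019032, at 74.9 CPM at 6 DAP and 768, 660 and 651 CPM in 7 DAP replicates 1, 2 and 3. All 3 libraries of 7 DAP were far above the 6 DAP library, and 96.4% to 98.4% of the 7 DAP UMIs lay in ESR marker cells. Its identifier directly precedes that of MEG14, an ESR marker of the maternally expressed gene family, and how reads were divided between near-identical copies was not examined. Zm00001d000586 was at 45.9 CPM at 6 DAP and at 302, 445 and 252 CPM at 7 DAP. The libraries of 7 DAP differed among themselves for this gene, but none overlapped the 6 DAP level. Zm00001d026755 followed the same order of ages with a wider spread, at 41.6 CPM and then 369, 271 and 159.

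DEF3 (Zm00001d018254) was at 36.4 CPM at 6 DAP and at 284, 253 and 197 at 7 DAP. Zm00001d029775, which had the largest ratio of the 17 (log2 3.51), was at 7.31 CPM and then 81.0, 104 and 65.3, and its near neighbour by identifier, Zm00001d029773, was at 2.11 and then 17.6, 18.1 and 8.54. Both had over 96% of their 7 DAP UMIs in ESR marker cells. INVINH1 (Zm00001d002517), by its name an inhibitor of invertase, the enzyme that cleaves sucrose, was at 3.65 CPM and then 23.7, 24.9 and 16.4. It was less concentrated, with 64.2% to 75.4% of its 7 DAP UMIs in ESR marker cells and 23.1% at 6 DAP.

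Of the others, Zm00001d011016 was at 22.3 CPM at 6 DAP and 151, 149 and 114 at 7 DAP, and Zm00001d052117 at 28.4 and then 165, 163 and 160. Zm00001d023512, Zm00001d027031 and Zm00001d053797 were low at both ages, at 1.69 to 3.79 CPM at 6 DAP and 12.1 to 27.5 CPM over the 7 DAP libraries. Zm00001d027031 rested on 12 UMIs and Zm00001d053797 on 15 at 6 DAP. Zm00001d019324 was at 7.73 CPM and then 47.1, 33.1 and 37.1. The remaining 4, Zm00001d048826, Zm00001d053788, Zm00001d024548 and Zm00001d026520, had log2 ratios of 1.79 to 2.29.

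**Figure D2:**
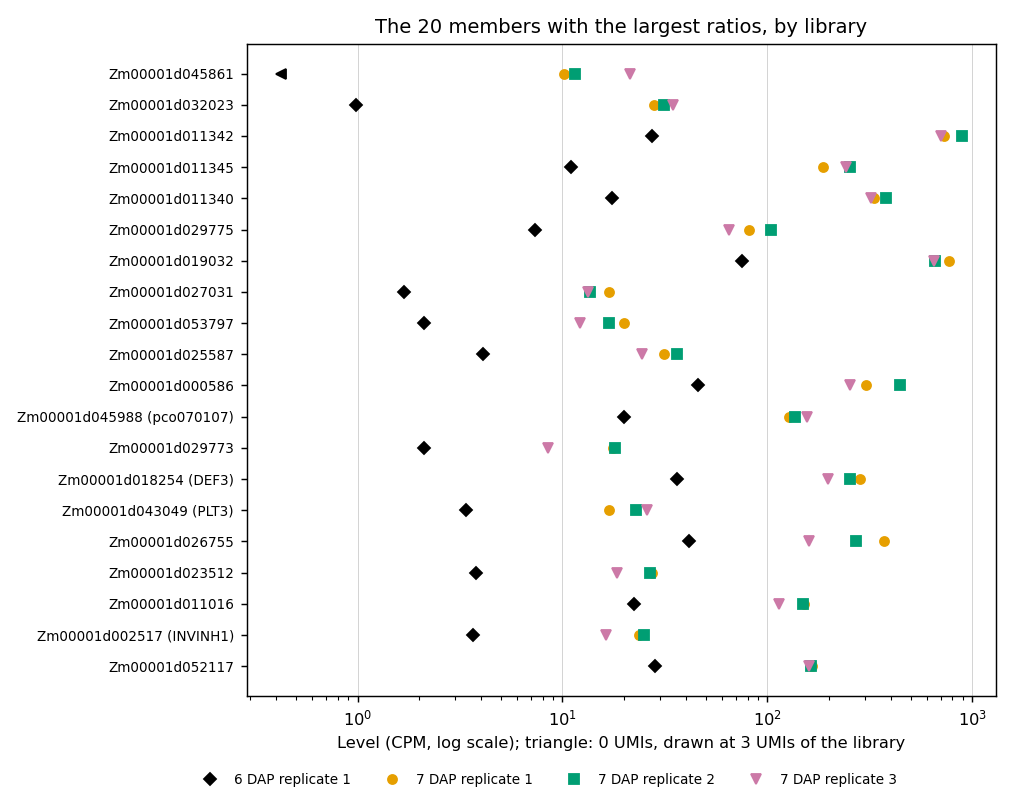
Level in each library (x axis, CPM, log scale) of the 20 members with the largest ratios, in falling order from the top. Black diamonds are the 6 DAP library, coloured symbols the 3 libraries of 7 DAP, and the black triangle marks 0 UMIs at 6 DAP, drawn at the level of 3 UMIs. In every line all coloured symbols lie to the right of the black one, and Zm00001d026755 and Zm00001d029773 show a wide spread at 7 DAP.

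Within ESR marker cells alone, the order of the ages for the 17 genes depended on which cells were kept. Among the cells kept here, they took 26.0% of the 9114 UMIs of the 4 cells at 6 DAP and 21.0%, 22.1% and 21.8% of the 306526, 382364 and 277010 UMIs of those cells in 7 DAP replicates 1, 2 and 3. The log2 ratio within these cells had a median of -0.31 and ran from -1.23 to 1.14. The 6 DAP level was above all 3 libraries of 7 DAP for 11 genes, within their range for 3 and below them for 3. Zm00001d019032 was at 57165 CPM in the 6 DAP cells (95% Poisson interval 52361 to 62291) and at 61809, 59336 and 74950 CPM at 7 DAP. DEF3 was at 26991 CPM (23724 to 30584) and then 22846, 22866 and 21985, which was higher at 6 DAP than in every 7 DAP library. Zm00001d026520 was at 10533 CPM (8532 to 12863) and then 4682, 5126 and 3679. INVINH1, with 6 UMIs in the 6 DAP cells, was at 658 CPM (242 to 1433) and then 1396, 1737 and 1231. Only 4 cells stand behind each 6 DAP value, and no test was possible between the ages. The single highest cell held from 19.2% (INVINH1) to 79.2% (Zm00001d019032) of a gene's UMIs at 6 DAP. The Poisson intervals treat UMIs as independent and leave out the difference between cells, so they are too narrow for these levels. The median UMI count of an ESR marker cell was 2097 at 6 DAP and 4567 to 8133 at 7 DAP.

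These values rest on a limit on complexity (the logarithm of genes over the logarithm of UMIs, at least 0.8), which removed further ESR barcodes. Barcodes removed by this limit alone numbered 1 at 6 DAP and 20, 22 and 16 at 7 DAP, and of these 1 and then 18, 16 and 13 passed the ESR limit, with median counts of 3256 UMIs at 6 DAP and 9858, 24116 and 25903 at 7 DAP. With them added, the 17 genes took 24.4% of 12370 UMIs at 6 DAP and 27.6%, 27.4% and 30.9% at 7 DAP, so the share was then lower at 6 DAP than in each 7 DAP library. The median log2 ratio within ESR barcodes was then -0.035, and the 6 DAP level was above all 3 libraries of 7 DAP for 6 genes, within their range for 4 and below them for 7. Zm00001d019032 was then at 56023 CPM and at 100886, 90385 and 113699, whereas DEF3 was at 23444 and at 20976, 20888 and 19520. This comparison was added after seeing the data.

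**Figure D3:**
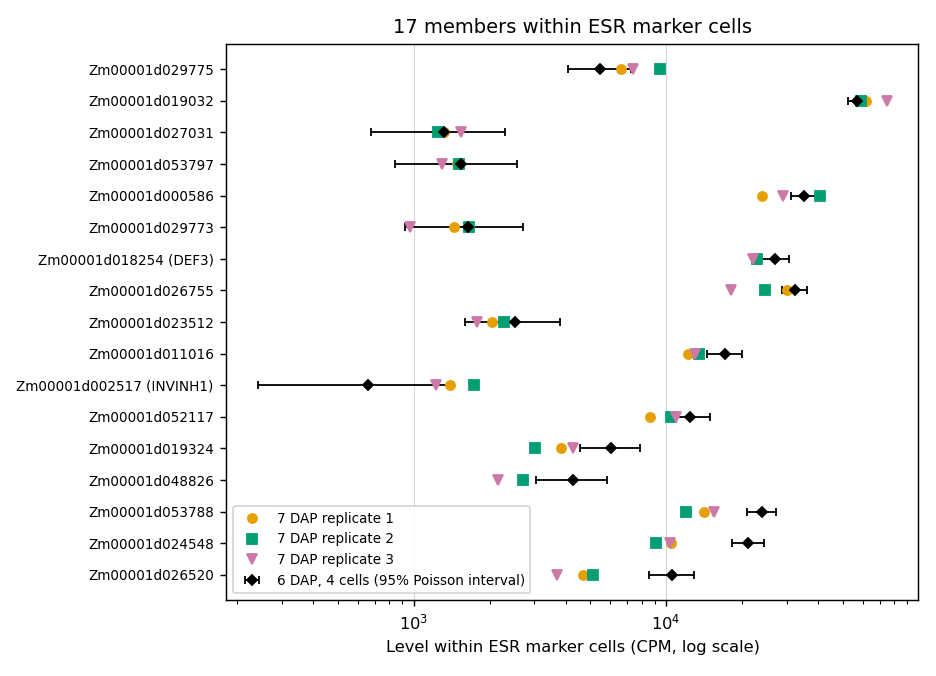
Level within ESR marker cells (x axis, CPM, log scale) of the 17 members with most 7 DAP UMIs in those cells, in the same order as by ratio. Diamonds are the 4 cells of 6 DAP with their 95% Poisson interval, which leaves out the difference between cells. Coloured symbols are the 51, 42 and 34 cells of the 7 DAP libraries. For 11 genes the diamond lies to the right of all 3 coloured symbols, which fell to 6 with barcodes under the complexity limit added.

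The number of these cells depended on the same limits. Among all deposited barcodes, ESR barcodes were 10 of 4627 at 6 DAP (0.216%) and 82 of 5835, 78 of 5918 and 57 of 5274 at 7 DAP (1.41%, 1.32% and 1.08%). Without the complexity limit the log2 ratio of Zm00001d019032 moved from 3.21 to 4.43 and that of Zm00001d029775 from 3.51 to 4.52.

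A separate rare set of cells carried 5 members with ratios among the largest. Zm00001d011340, Zm00001d011342 and Zm00001d011345, with nearby identifiers, had nearly all of their UMIs in cells where they made up at least 0.5% of UMIs (a limit chosen after their values were seen). There was 1 such cell of 3141 at 6 DAP, with 1113 UMIs, and there were 30, 32 and 26 at 7 DAP (0.623%, 0.657% and 0.593%). In the median cell of this kind the 3 genes together made up 24.3%, 19.1% and 27.3% of all UMIs in 7 DAP replicates 1, 2 and 3, and 31.9% in the 6 DAP cell. These cells held 99.6% to 99.9% of the UMIs of the 3 genes at 7 DAP. Outside them the highest share in any cell was 0.445%, 0.0934% and 0.157% in the 3 libraries. Between 23 and 29 of them per 7 DAP library fell into none of the 4 marker sets, and the median cell had no UMI of an SE or ESR marker. No cell type name was given to them, since no marker list used here fits them, and the study set aside small clusters it took for embryo and nucellus, which were kept here.

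Zm00001d011342 was at 27.4 CPM at 6 DAP and at 726, 895 and 701 CPM in 7 DAP replicates 1, 2 and 3. Zm00001d011340 was at 17.4 and then 332, 379 and 322, and Zm00001d011345 at 11 and then 188, 253 and 243. In each case the 6 DAP level was at least 10 times below every 7 DAP library, but 87.9% to 93.6% of the UMIs at 6 DAP came from the single cell. Zm00001d032023, at 0.983 CPM (7 UMIs) and then 28.1, 31.3 and 34.6, had 99.6% to 100% of its 7 DAP UMIs in the same cells. Zm00001d025587, at 4.07 and then 31.3, 36.4 and 24.6, had 59.8% to 68.3% there. These 5 genes had log2 ratios of 2.92 to 4.99 and summed to 60.8 CPM at 6 DAP and 1306, 1595 and 1325 at 7 DAP. With all deposited barcodes, 5 of these barcodes were found at 6 DAP and 32, 36 and 28 at 7 DAP, and the log2 ratio of Zm00001d011342 fell to 3.44 and that of Zm00001d032023 to 3.80.

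Smaller parts of 2 further members lay in the same cells. Zm00001d020780 was at 7.02 CPM at 6 DAP and 23.2, 24.4 and 22.7 at 7 DAP, with 43.8% to 55.4% of its 7 DAP UMIs there. PLT3 (Zm00001d043049) was at 3.37 and then 16.9, 22.7 and 26.0. Of its 7 DAP UMIs, 15.0%, 37.4% and 42.2% lay there in replicates 1, 2 and 3. Outside those cells PLT3 was nearly level across the 7 DAP libraries, at 14.5, 14.3 and 15.1 CPM, against 3.37 at 6 DAP.

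The largest ratio of all belonged to Zm00001d045861, which had no UMI at 6 DAP and 10.1, 11.5 and 21.4 CPM at 7 DAP. Against the level of 3 UMIs at 6 DAP its mean was 34.0-fold higher, a value that depends on that choice of level. Its 7 DAP UMIs came from 41, 23 and 23 cells, and only 2 or 3 cells per library held 50% of them. Of the 10 members with the largest ratio, 4 had most of their UMIs in ESR marker cells, 5 had them in the rare set just described, and the remaining one was Zm00001d045861. Among the largest 20 the numbers were 12 and 5. Leaving out the rare set alone from every library, 115 genes passed the same limits (1.18% of those tested). Leaving out both kinds of cells, 100 genes passed (1.02%), of which 97 were members. The median log2 ratio of the 101 members that still reached 10 CPM was 1.28.

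**Figure D4:**
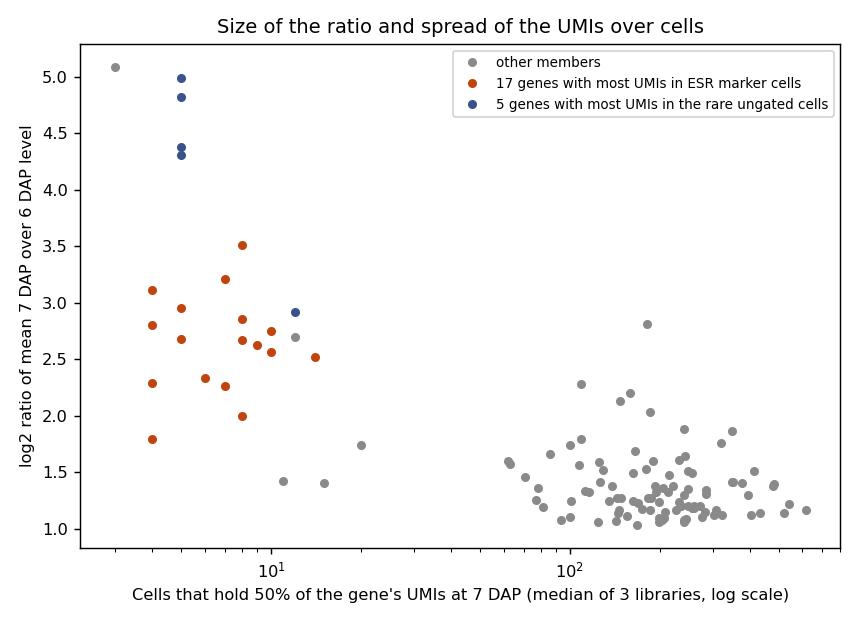
Log2 ratio of each member (y axis) against the number of cells that hold 50% of its UMIs at 7 DAP (x axis, log scale, median of 3 libraries). The orange and blue points, and Zm00001d045861 at the top left, rest on few cells, while most grey points rest on 60 or more cells and have log2 ratios below 2.

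The other 100 members were spread more widely over cells, had a median log2 ratio of 1.30 and summed to 5305 CPM at 6 DAP and 15101, 16684 and 16813 CPM at 7 DAP. Zm00001d007967 made up 44.6% of the level of all 122 at 6 DAP and 44.4% to 47.7% at 7 DAP. It was at 2551 CPM at 6 DAP and at 8478, 9796 and 9594 CPM in 7 DAP replicates 1, 2 and 3, so that the lowest 7 DAP library was over 3 times the 6 DAP level. Neither the study lists nor the deposited files used here give it a symbol or function. The study's own list of gene symbols and annotations was not read.

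The rule used whole-library levels, which also move with the share of each cell type. ESR marker cells were 0.127% of cells at 6 DAP and 0.775% to 1.06% at 7 DAP. SE marker cells, defined below, were 10.6% of cells at 6 DAP and 10.7% to 11.9% at 7 DAP. Their share of UMIs was 10.3% at 6 DAP and 5.82% to 8.09% at 7 DAP. The counts of members called in a marker set are therefore not independent of the choice. Where the members were detected at 7 DAP did not itself enter the rule. It was tested with edgeR's quasi-likelihood test on UMI sums of marker cells against all other kept cells of the same library (n = 3 libraries), with Benjamini-Hochberg adjustment over all genes tested. BETL marker cells had at least 2% of UMIs from BETL markers and lay outside the ESR set. AL and SE marker cells lay outside the BETL and ESR sets. SE marker cells had at least 0.2% of UMIs, and at least 3 UMIs, from SE markers. AL marker cells were the 25% with the highest share of AL markers. Cells that met both the AL and the SE limit were counted in neither set. These limits cut a continuum: per 7 DAP library 531 to 597 cells lay within 25% of the AL limit, 253 to 333 of the SE limit, 57 to 114 of the BETL limit and 4 to 8 of the ESR limit. The median 7 DAP cell of a set had 11.1% to 11.9% of its UMIs from its own markers in AL, 7.79% to 9.72% in BETL, 0.341% to 0.363% in SE and 11.8% to 13.3% in ESR, and the median SE marker cell also had 0.146% to 0.25% from AL markers. Fold changes by trimmed mean of M-values (TMM) scaling stand relative to the typical gene. Scaling by UMI totals moved them by -0.40 (AL), -0.51 (BETL), 0.38 (SE) and -0.40 (ESR) on the log2 scale, and a direction is given for a gene below only where both scalings call it.

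In AL marker cells 68 members were called higher and 40 lower, where 23.5% and 23.9% of all genes tested were called. Among the genes of at least 10 CPM, from which the members come, 36.3% were higher and 25.0% lower. By totals 52 members were higher and 57 lower, against 8.36% and 60.2% of all genes. All 52 were higher by both scalings. The median log2 fold change in AL marker cells was 0.30 for the members and -0.03 for all genes.

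In SE marker cells 5 members were higher and 108 lower, where 23.7% and 27.5% of all genes were called (26.2% and 36.1% of those of at least 10 CPM). By totals 9 were higher and 96 lower, against 45.6% and 14.9%. The median fold change was -2.15 on the log2 scale for the members and -0.01 for all genes. In BETL marker cells 25 members were higher and 88 lower, beside 30.4% and 32.1% of all genes (38.1% and 34.5% of those of at least 10 CPM), and by totals 14 were higher and 102 lower, beside 12.8% and 64.1%. In ESR marker cells 37 were higher and 40 lower, beside 6.46% and 12.7% of all genes (8.06% and 23.9% of those of at least 10 CPM), and by totals 27 were higher and 61 lower, beside 3.81% and 23.0%. Both scalings agreed on 14 members higher in BETL, 5 in SE and 27 in ESR marker cells. In ESR marker cells the largest fold changes were those of Zm00001d029773 (log2 12.94), Zm00001d019324 (12.74), Zm00001d000586 (12.59), Zm00001d026755 (12.52) and Zm00001d029775 (12.43), with 0.223 to 7.83 CPM outside those cells.

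**Figure D5:**
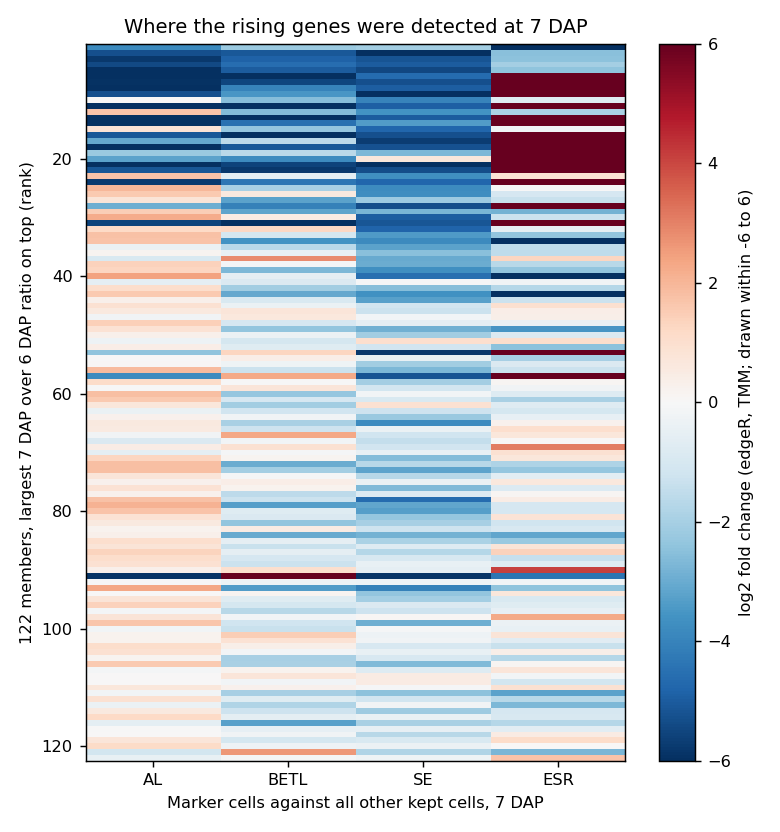
Log2 fold change of each member between marker cells and all other kept cells at 7 DAP (edgeR, TMM scaling, colours drawn within -6 to 6), one line per member, with the largest 7 DAP over 6 DAP ratio on top. The top 25 lines are mostly dark red in the ESR column and blue elsewhere, the AL column below is mostly pale red, and the SE column is mostly blue. By totals the AL and BETL columns would shift by -0.40 and -0.51.

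Several members that were higher in AL marker cells belong to the oil and lipid genes for which the aleurone is known. The oleosin gene Zm00001d045988, whose product coats oil bodies, was at 19.9 CPM at 6 DAP and at 127, 137 and 156 CPM in 7 DAP replicates 1, 2 and 3. Its log2 ratio of 2.81 was the largest among members whose 7 DAP UMIs needed more than 20 cells per library to reach 50%. In AL marker cells it was at 263 ± 51.5 CPM (SD, n = 3) against 105 CPM outside them (log2 fold change 1.71 ± 0.06 SE, edgeR adjusted p = 1.2e-19). Within AL marker cells it was at 29.6 CPM at 6 DAP and 215, 255 and 317 at 7 DAP.

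Zm00001d013907, annotated as a nonspecific lipid-transfer protein, a class of small secreted proteins that bind lipids, was at 96.8 CPM and then 307, 329 and 347. It was at 621 ± 18.5 CPM in AL marker cells and 246 outside (log2 fold change 1.74, edgeR adjusted p = 1.6e-23). OBAP2A (Zm00001d043464), an oil body-associated protein, was at 22.5 CPM and then 60.7, 63.1 and 66.1. Its log2 fold change in AL marker cells against all other kept cells was 0.85 (edgeR adjusted p = 7.3e-13). Within AL marker cells OBAP2A was at 39.4 CPM at 6 DAP and 71.1, 79.1 and 88.7 at 7 DAP. In cells outside every marker set it was at 26.7 and then 86.1, 87.3 and 90.9, above AL marker cells in each 7 DAP library. In BETL and SE marker cells of 7 DAP it was at 7.47 to 13.4 CPM. OBAP2B (Zm00001d011755) was at 25.2 and then 63.4, 57.2 and 56.8. Of the 20 genes with an oil or lipid keyword that reached 10 CPM, 3 rose and 2 fell. The 3 annotated by that keyword were the oleosin, the lipid-transfer protein and OBAP2A. The median log2 ratio of the 20 was -0.04, beside -0.15 over all 9772 genes. All keyword lists drew on annotations in the study's lists of cell cycle genes, cluster markers and genes differing between clusters or ages. All but the cell cycle list came from these same libraries. The counts and medians of keyword lists therefore do not stand for whole gene families, and nothing is read from them.

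Genes of redox chemistry formed a second small set. SOD4 (Zm00001d029170), a copper-zinc superoxide dismutase, which converts superoxide to hydrogen peroxide, was at 194 CPM at 6 DAP and at 416, 443 and 444 CPM at 7 DAP. It was at 708 ± 54.2 CPM in AL marker cells and 357 outside (log2 fold change 1.39, edgeR adjusted p = 2.3e-20). GST31 (Zm00001d027557), a glutathione transferase, was at 23.7 CPM and then 62.8, 59.5 and 60.5. In cells outside all 4 marker sets GST31 was at 21.0 and then 79.2, 77.2 and 78.4, and in BETL marker cells it was level, at 41.3 and then 45.6, 42.9 and 35.3. Zm00001d028775, annotated as a thioredoxin-type protein, is described with the BETL genes. These 3 rose out of 48 genes tested from the redox keyword list, whose median log2 ratio was 0.09, and none of the 48 fell. MSR6 (Zm00001d029238), a methionine sulfoxide reductase that repairs oxidised methionine, was at 57.7 CPM and then 138, 159 and 154.

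Genes named for abscisic acid (ABA), the hormone of seed maturation and drought, included 2 neighbours by identifier. AASR7 (Zm00001d040786) was at 33.4 CPM and then 75.7, 85.2 and 85.1, and AASR9 (Zm00001d040787) at 37.1 and then 80.0, 90.3 and 91.9. Both are named for abscisic acid stress ripening proteins, small proteins that accumulate in drying or ABA-treated plant tissue. They were the 2 genes to rise of 7 tested in the study's ABA response list, which had a median log2 ratio of 0.37. AASR7 was higher in AL marker cells than in all other kept cells (log2 fold change 0.71, edgeR adjusted p = 1.5e-12). At 7 DAP it was at 91.2, 96.4 and 103 CPM in AL marker cells. In cells outside every marker set it was at a similar 85.6, 97.4 and 97.1 CPM. AASR9 had no direction in AL marker cells that both scalings gave. Zm00001d009087, annotated by homology as RESPONSE TO ABA AND SALT 1, was at 132 CPM and then 331, 371 and 356. Of 15 genes with a keyword for ABA or drying, the same 2 AASR genes rose.

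Other hormone genes were few. AOC1 (Zm00001d029594), the allene oxide cyclase of jasmonate synthesis, was at 28.2 CPM and then 68.1, 70.0 and 71.6, and was 1 of 16 jasmonate biosynthesis genes tested to rise. It was at 135 ± 3.79 CPM in AL marker cells and 51.5 outside (log2 fold change 1.79, edgeR adjusted p = 1.9e-21). TAR3 (Zm00001d037674), a tryptophan aminotransferase-related gene of auxin synthesis, was at 5.76 CPM and then 12.5, 13.1 and 15.5, and was 1 of 8 auxin biosynthesis genes. It was higher in AL marker cells (log2 fold change 1.70, edgeR adjusted p = 2.3e-14), whereas in BETL marker cells it was at 10.5 CPM at 6 DAP and 7.08, 6.16 and 6.79 at 7 DAP. ABP1 (Zm00001d041711), an auxin-binding protein, was at 34.4 and then 95, 98.1 and 101. GA20OX4 (Zm00001d013725), by its name a gibberellin oxidase, was at 7.02 and then 18.1, 19.3 and 17.5.

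Of 10 genes tested from the protease inhibitor keyword list, 1 met the limit, and the median log2 ratio of the 10 was 0.57. This was PSEI6 (Zm00001d029630), a cystatin that inhibits cysteine proteases, at 17.1 CPM and then 40.9, 40.8 and 42.8. It was higher in AL marker cells (log2 fold change 0.87, edgeR adjusted p = 1.9e-12). The study listed transcription factors with binding profiles, its own or taken from published data. Among the 142 of these that were tested, bHLH108 (Zm00001d025141) rose, from 8.15 CPM to 16.8, 16.5 and 16.7. That gene had the smallest ratio of the 122 (log2 1.03). It was higher in ESR marker cells (log2 fold change 1.69 ± 0.31, edgeR adjusted p = 1.5e-06), at 16.3, 57.5 and 43.3 CPM in replicates 1, 2 and 3 against 16.8, 16.1 and 16.4 outside, so that replicate 1 did not show the difference. WRKY26 (Zm00001d008794) was at 18.5 and then 43.4, 41.4 and 38.4.

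Several gene groups held no member, where 1.25% of all genes tested met the limit. None of 198 ribosomal protein genes met it (1 fell), nor any of 58 histone genes, 115 S-phase genes, 182 G2/M genes, 34 heat shock and chaperone genes, 23 transporters, 19 cell wall genes, 11 sugar and starch genes or 10 genes with a defence keyword. DEF3 is a member, but no annotation used here let the keyword reach it. At a share of 1.25%, groups of these sizes would hold few members or none, so their absence is not read as a result. Histone genes had a median log2 ratio of 0.26 and the 4 metallothionein genes one of 0.57. Only 45 members carry a symbol or annotation in the study lists used here, 29 of them an annotation, so these counts leave most members out. The study's own list of gene symbols and annotations was not read, so more members may have a name there.

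Zm00001d007967 was also highest in AL marker cells, at 21211 ± 1366 CPM against 5934 outside (log2 fold change 2.24 ± 0.03, edgeR adjusted p = 7.1e-28). In AL marker cells it was at 6440 CPM at 6 DAP and at 19637, 22101 and 21894 CPM at 7 DAP, and in the other cells at 1666 and then 5393, 6338 and 6070, so the ages did not overlap in either. In SE marker cells of 7 DAP it was at 430 ± 158 CPM.

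The members with the largest fold changes in AL marker cells included Zm00001d049143 (log2 2.42), Zm00001d024120 (2.34), Zm00001d037000 (2.10) and Zm00001d039994 (1.99). Zm00001d024120, annotated by homology as an O-methyltransferase, was at 93.7 CPM and then 200, 216 and 221, and within AL marker cells at 283 and then 493, 518 and 496. The rise within AL marker cells stayed below 2-fold for that gene, and outside them it was at 50.7 and then 119, 131 and 143. Zm00001d025924, annotated by homology as a neomenthol dehydrogenase, was at 138 CPM and then 318, 332 and 370, with a log2 fold change of 1.81 in AL marker cells (edgeR adjusted p = 3.4e-24). Zm00001d039994 was at 4.78 and then 21.8, 21.4 and 23.0, with 14.4 CPM at 6 DAP and 45.7, 46.1 and 46.4 at 7 DAP within AL marker cells.

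Of the BETL genes, Zm00001d007444 was the clearest. It was at 482 CPM at 6 DAP and at 1053, 1016 and 1237 CPM at 7 DAP, and in BETL marker cells at 2350 and then 4873, 4509 and 5358. At 7 DAP it was at 4913 ± 426 CPM in BETL marker cells and 30.9 outside (log2 fold change 7.83 ± 0.14, edgeR adjusted p = 8.4e-154). It had the second highest level of the members.

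Zm00001d028775, the thioredoxin-type gene, was at 36.9 CPM and then 82.8, 97.6 and 100, and in BETL marker cells at 115 and then 196, 217 and 224 (log2 fold change between cells at 7 DAP 2.33, edgeR adjusted p = 3.4e-127). Zm00001d012602 was at 13.3 CPM and then 27.5, 27.3 and 28.4 (fold change in BETL marker cells log2 2.61), and its neighbour by identifier Zm00001d012604, which was at 30.9 and then 76.6, 86.9 and 82.0, was highest in AL marker cells. Zm00001d026595 was at 4.21 and then 12, 14.1 and 13.8 (log2 2.85). Zm00001d004805 was higher in both BETL (log2 2.30) and ESR marker cells (6.79), at 567 ± 71.2 CPM in the latter and 28.3 ± 4.70 in the former.

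In SE marker cells the 5 members called higher were Zm00001d024522, Zm00001d020402, Zm00001d052117, Zm00001d051938 and Zm00001d014493, with log2 fold changes of 0.99, 0.93, 0.70, 0.50 and 0.49. DESeq2 called 4 of them and not Zm00001d052117 (log2 0.62, DESeq2 adjusted p = 0.34). Zm00001d024522 was at 10.3 CPM and then 29.1, 27.9 and 28.8, and at 66.4 ± 2.04 CPM in SE marker cells against 25.8 outside. Zm00001d020402 was at 8.99 and then 23.6, 23.5 and 23.0, and at 52.5 ± 0.890 CPM in SE marker cells against 21.2 outside. Zm00001d052117 is better placed with the ESR genes, and its levels in SE marker cells of the 3 libraries ranged widely, at 184, 284 and 547 CPM. For Zm00001d051938 the sign turned with a doubled limit for SE marker cells (log2 fold change -0.22).

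The same limits were then applied within each marker set. The AL limit was 1.90% of UMIs at 6 DAP and 6.81% to 7.08% at 7 DAP, so AL marker cells were not chosen alike at both ages. The minimum of 3 UMIs from SE markers also asks for a larger share in a shallow cell, and the 6 DAP cells were shallower. Within AL marker cells 94 members reached 10 CPM and 70 of them met the same limit, as did 2.29% of all genes. Within cells in none of the 4 sets 94 of 104 met it (1.97% of all genes), within SE marker cells 33 of 64 (3.77%) and within BETL marker cells 23 of 64 (0.979%). These percentages stand beside counts that come from the contrast that chose the members, so nothing is read from them. The 6 DAP level was below all 3 libraries of 7 DAP for 94 of 94, 104 of 104, 64 of 64 and 53 of 64 members in those cells, beside 30.1% of all genes over all kept cells. Over the 4 sets, 4 members met the limit in all, 25 in 3, 50 in 2, 29 in 1 and 14 in none.

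Shares of cells with a UMI come from the same counts that chose the members and are given as a description. Each kept cell was thinned at random to 1000 UMIs. For the 100 members outside the 2 rare sets, the median share was 1.21% of cells at 6 DAP and 2.76%, 3.00% and 2.93% in 7 DAP replicates 1, 2 and 3. Without thinning, and with median depths of 1814 UMIs per cell at 6 DAP and 3979 to 5659 at 7 DAP, these shares were 2.31% and then 11.5%, 14.6% and 14.9%. For the 17 ESR genes the thinned share was 0.159% and then 1.43%, 1.09% and 1.09%. The widest was that of Zm00001d007967, at 56.5% of cells at 6 DAP and 66.5% to 67.7% at 7 DAP after thinning, followed by SOD4 (Zm00001d029170), at 16.1% and then 30.9%, 32.9% and 32.2%. Free RNA in the droplets was not measured.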

How the data were processed

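The deposited files hold raw UMI counts per gene and barcode, which the authors made with Cell Ranger. The genome build for these libraries is not given in the sources used here. Barcodes with 500 to 7500 genes, at least 1000 UMIs and a complexity of at least 0.8 were kept. The complexity limit is a reading of the study's formula. Doublets were not removed and no caller was run. Levels are CPM of library sums. A 3' UMI counts a molecule once, so levels are not scaled by length.

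Members and lists were chosen with earlier results of these data known. Named genes were the 20 largest ratios, the 10 highest levels, members of function, hormone or transcription factor lists, 5 per marker set, and 3 on each side of the limit. OBAP2B, MSR6, ABP1, GA20OX4, WRKY26, Zm00001d012604, Zm00001d020780, Zm00001d048826, Zm00001d053788, Zm00001d024548 and Zm00001d026520 were added after their values were seen. Location was fitted with edgeR 4.0.16 (R 4.3.3) with library as block, after tests on simulated data. DESeq2 1.42.0 was an alternative. Marker limits were set after marker shares, but not members' values, were seen. The study itself took several of the markers from these libraries. Sequences are not shown here.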

Additional observations from a re-analysis of the deposited data

Results flagged for a closer look

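In the barcodes that the limits on genes, UMIs and complexity had removed, 118 of the 122 members had more than 3 UMIs in each 7 DAP library. Above, these barcodes entered only the counts of rare barcodes and the values given without the complexity limit or with all deposited barcodes. In them 32 members met the rising limits, with a median log2 ratio of 0.60 over the members.

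For 4 members, the 6 DAP library and the 7 DAP libraries placed the gene on opposite sides of a marker set, and the difference was not tested. Zm00001d017237 was lower in BETL marker cells than outside at 6 DAP (13.3 against 18.8 CPM, log2 ratio -0.50, 19 UMIs) and higher in each 7 DAP library (mean 47.0 against 36.8 CPM). Zm00001d043898 was lower in AL marker cells at 6 DAP (16.7 against 19.1 CPM, log2 ratio -0.20, 22 UMIs) and higher at 7 DAP (144 against 64.2 CPM). AASR7 (Zm00001d040786) was at 23.5 against 35.7 CPM at 6 DAP (log2 ratio -0.60, 31 UMIs) and at 96.7 against 77.9 CPM at 7 DAP in AL marker cells and outside. Zm00001d033292 was at 3.03 against 6.21 CPM at 6 DAP (log2 ratio -1.03, 4 UMIs) and at 15.7 against 11.8 CPM at 7 DAP.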

How the results depend on the processing

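The number of rising genes was 120 to 148 with 1 of the 7 DAP libraries left out, and the median log2 ratio of the members was 1.37 to 1.40. TMM scaling gave 180 rising and 40 falling genes in place of 122 and 82, and a median log2 ratio of 1.53. Totals without the left-out and organelle genes gave 144 genes and 1.43. A minimum of 1 CPM gave 513 genes, no minimum 2774, and a 3-fold limit 36 rising and 2 falling genes. Without ESR marker cells 105 genes rose, and the median was 1.32 over the 106 members that still reached 10 CPM. Without both rare kinds of cells 100 genes rose, and the median was 1.28 over 101 members. These alternatives were chosen after seeing the data, as was scaling by totals. By totals the members higher in BETL marker cells fell to 14 and those in SE marker cells rose to 9, and 61 were lower in ESR marker cells, where DESeq2 called 24. Leaving out 1 library gave 23 to 24 higher and 86 to 88 lower members in BETL, 64 to 67 and 34 to 38 in AL, 5 and 104 to 107 in SE, and 27 to 35 and 28 to 37 in ESR marker cells. Without the replicate block, 24, 63, 5 and 37 members were higher and 86, 38, 107 and 42 lower in BETL, AL, SE and ESR marker cells. Without the complexity limit the median within ESR marker cells moved from -0.31 to -0.035 (chosen after seeing the data). Zm00001d051938 turned to -0.22 with a doubled SE limit, and Zm00001d052117 in SE marker cells was at 0.62 by DESeq2 (adjusted p = 0.34). The causes were not tested. No paired analysis was possible because the labels link the 6 DAP library to no particular 7 DAP library. The single 6 DAP library, with 4 ESR marker cells, limits every comparison of ages.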

Other observations

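The rare cells rich in Zm00001d011340, Zm00001d011342 and Zm00001d011345 also held genes that are not members, listed here after their values were seen. Zm00001d022089 was at 9791, 11022 and 15942 CPM in these cells of 7 DAP replicates 1, 2 and 3 and at 34.4, 36.4 and 40.9 CPM in all other kept cells. Zm00001d038638 was at 778, 888 and 1027 CPM inside and at 1.18, 1.40 and 1.12 CPM outside. Zm00001d018667 was at 203, 133 and 273 CPM inside and had no UMI in any other kept cell of 7 DAP. The files used here give no function for these genes.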
